A study of Mus musculus with 6 samples.

Results

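Tau and the proteins that bind, build or destabilize microtubules in neurons were examined at the mRNA level in undifferentiated mouse embryonic stem cells (mESCs). The group holds 10 genes, which were chosen by name: Mapt, Map2, Map4, Map1a, Map1b, Stmn1, Stmn2, Stmn3, Tubb3 and Dcx. They were chosen with earlier results of these data known, so their counts beside all tested genes are no independent evidence. All 10 were found among the 23412 genes measured by RNA-seq. The lines compared were R1, the parental wild type line of strain 129Sv, and Htt-null (HN), its derivative of genotype Htt-/- in which the promoter and the first exon of Htt were removed. Each genotype is represented by a single line, so that a difference between genotypes and a difference between these lines cannot be told apart. Both were kept undifferentiated, without feeders, on gelatin in serum medium with LIF and inhibitors of FGF/VEGF receptors, MEK and GSK3, and 3 libraries per line came from 3 collection dates shared by the lines. The question behind the comparison is whether genes linked to neural differentiation are already altered in HN mESCs before differentiation starts.

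Microtubules are hollow polymers of α- and β-tubulin that carry transport and give the axon and dendrite their shape. Tau (Mapt) and MAP2 stabilize them in axons and in dendrites, while MAP4 is the relative of both found in most tissues. MAP1A and MAP1B are large microtubule-binding proteins of mature and of growing neurites, stathmins bind tubulin dimers and favour disassembly, and doublecortin and β-III tubulin mark young neurons. Huntingtin itself is known to take part in transport along microtubules.

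Of these genes, Mapt differed most between the lines, with a mean level 3.75-fold higher in HN than in R1 mESCs. Map1b and Map4 were higher in HN as well, by 1.42-fold and 1.29-fold, and all 3 HN libraries lay above all 3 R1 libraries for each of the 3 genes. Stmn3, Map1a and Stmn2 lay lower in HN without overlap, by 2.71-fold, 1.88-fold and 1.77-fold, and Tubb3 was 1.72-fold lower with overlapping lines. Map2 and Stmn1 overlapped, and Dcx was near the detection limit in both lines. The means of the group thus split in direction. The stathmins Stmn2 and Stmn3, Tubb3 and Map1a lay on 1 side and Mapt, Map1b and Map4 on the other. In the main test described below, only Mapt was called. Of all tested genes, 5.23% were likewise higher and 5.54% lower in HN without overlap.

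Levels are given as normalized counts, which are reads on the exons of a gene divided by a size factor for each library. Differences are means of log2(normalized count + 1) in HN minus R1, tested with limma over the 14276 genes with a mean of at least 5 normalized counts, a set that held 9 of the 10 genes. A gene is described as called at a Benjamini-Hochberg (BH) adjusted p under 0.05 with an absolute log2 difference above 1. Same-numbered libraries share a collection date in the sample labels, so values with the date as a block stand beside those without it. Htt, the deleted gene, read 230, 257 and 199 normalized counts in R1 and 18.3, 58.1 and 54.2 in HN, lower in every HN library. Between 1640391 and 3866717 reads per library lay on genes. The third-date library of each line had reads on the most genes of that line, 20675 in R1 and 20542 in HN against 18133 to 19083 in the other libraries. With 3 libraries per line, the smallest p of a two-sided exact permutation test is 0.1.

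Called without the block were 1 of the 9 tested genes higher in HN, against 0.119% of all tested genes, and 0 lower, against 0.126% of all tested genes. Of the 9 genes, 6 had an unadjusted p under 0.05 (5.91% of all tested genes). With the date block 1 was called higher (0.911% of all tested genes) and 1 lower (1.04% of all tested genes). At any fold, 3 were higher and 4 lower with a BH-adjusted p under 0.05 in that fit (5.46% and 4.02% of all tested genes). With the block, edgeR on the recovered reads likewise passed 3 higher and 4 lower (6.44% and 4.8%), and DESeq2 passed 1 higher and 3 lower (2.34% and 1.25%). Both called 1 gene lower with the block, against 1.06% of all tested genes in edgeR and 0.385% in DESeq2. In each direction 3 genes were free of overlap between the lines, as were 5.23% of all tested genes higher and 5.54% lower. The same-date differences had the same sign on all 3 dates for 3 genes higher and 4 lower in HN (20.3% and 21.1% of all tested genes). The median log2 difference was -0.16 over the 9 genes and -0.01 over all tested genes. Without both libraries of the third date, a choice made after seeing the data, limma still called 1 gene higher and 0 lower (0.133% of all tested genes in each direction). With the block it then called 1 higher and 3 lower (1.32% and 1.38% of all tested genes).

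**Figure D1:**
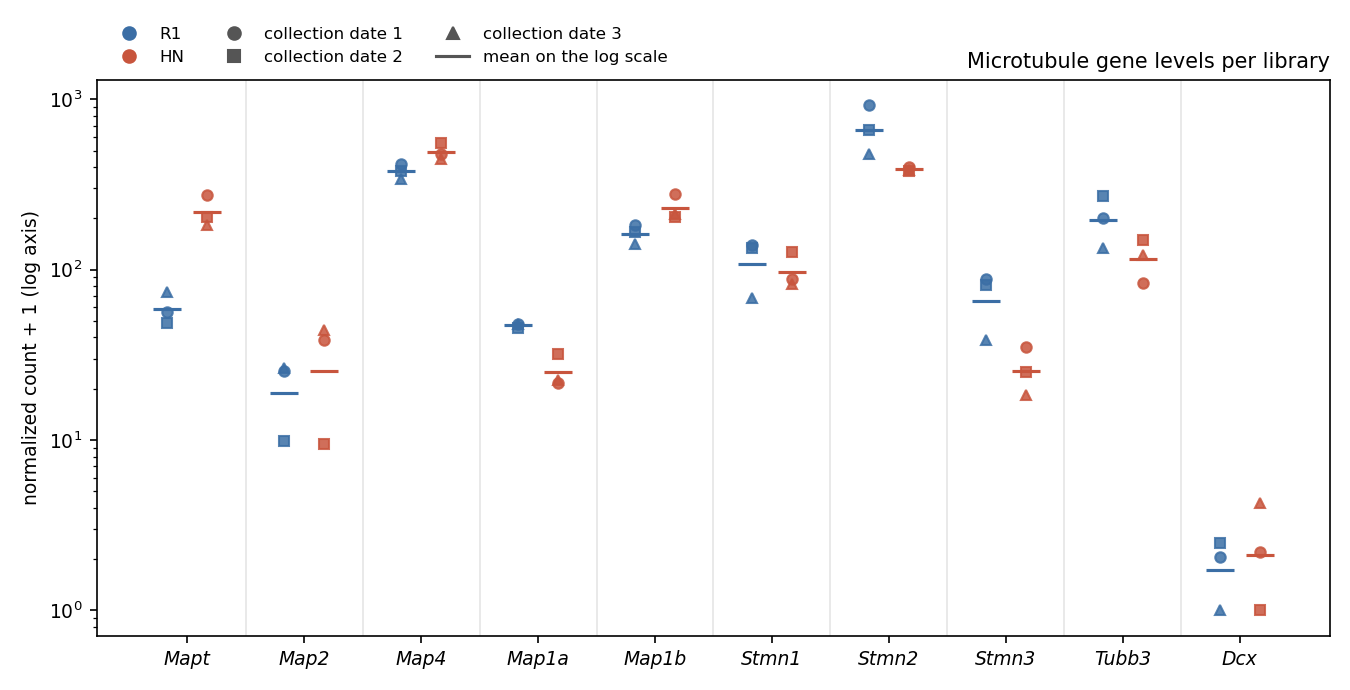
Normalized count + 1 (log axis) of each of the 10 genes in each library, with R1 in blue, HN in red, symbols for the collection dates and a bar at the mean on the log scale. Mapt separates most widely, with 47.3 to 72.8 normalized counts in R1 and 181 to 274 in HN. Stmn3 shows the largest mean difference in the other direction, although its third-date R1 library (37.7) lies close to its first-date HN library (34.1).

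Upstream sequence is shown for Stmn3, Tubb3 and Map1a, which were lower in HN, and for Map1b, which was higher. The sequences come from RefSeq (GRCm38.p6), which gave start regions for 7 of the 10 genes and none for Mapt, Stmn1 and Stmn2. They run 5′ to 3′ on the strand of the gene up to the base before the earliest start annotated for it in RefSeq or GENCODE M21, and capitals mark the GC box GGGCGG or its reverse complement CCGCCC. The stretches lie at chr2:181314501-181314750 on the minus strand for Stmn3, chr8:123411303-123411423 on the plus strand for Tubb3, chr2:121289352-121289599 on the plus strand for Map1a and chr13:99516603-99516852 on the minus strand for Map1b.
Stmn3: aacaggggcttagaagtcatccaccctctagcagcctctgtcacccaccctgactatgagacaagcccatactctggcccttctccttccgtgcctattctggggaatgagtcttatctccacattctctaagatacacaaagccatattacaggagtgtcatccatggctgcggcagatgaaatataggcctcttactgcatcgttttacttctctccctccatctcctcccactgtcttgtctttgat
Tubb3: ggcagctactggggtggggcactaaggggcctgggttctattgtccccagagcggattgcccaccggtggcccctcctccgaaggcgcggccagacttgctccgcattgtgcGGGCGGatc
Map1a: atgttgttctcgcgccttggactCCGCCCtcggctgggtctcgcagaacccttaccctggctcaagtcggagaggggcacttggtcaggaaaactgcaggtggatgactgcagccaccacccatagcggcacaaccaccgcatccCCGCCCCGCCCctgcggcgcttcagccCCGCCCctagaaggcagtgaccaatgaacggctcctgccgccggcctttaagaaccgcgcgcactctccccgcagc
Map1b: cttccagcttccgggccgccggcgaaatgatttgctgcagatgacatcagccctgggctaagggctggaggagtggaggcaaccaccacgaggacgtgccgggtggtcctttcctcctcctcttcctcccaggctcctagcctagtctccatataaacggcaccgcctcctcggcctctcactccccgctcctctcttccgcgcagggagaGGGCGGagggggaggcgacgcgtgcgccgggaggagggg
In the 250 bases before the RefSeq start, the GC box was found 0 times for Stmn3, 2 times for Tubb3, 4 times for Map1a, with 2 of these overlapping by 1 base, and 1 time for Map1b. It occurs in 32.7% of 32851 start regions of the same length. Stmn3, Tubb3 and Map1a thus do not share it. The window of Stmn3 held 3 CpG dinucleotides, while those of Tubb3, Map1a and Map1b held 21, 21 and 19, against a median of 6 over all start regions. Of the genes not printed, both start regions of Dcx also held 3, those of Map4 held 36 and 4, and that of Map2 held 34. Few CpG are thus not particular to Stmn3. A match is a description of letters only.

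Mapt encodes tau, the axonal microtubule stabilizer that aggregates in neurodegenerative disease. In GRCm38 (GENCODE M21) it spans positions 104231390 to 104332090 of chromosome 11, plus strand, and a transcript has up to 13 exons. R1 replicates 1, 2 and 3 held 55.4, 47.3 and 72.8 normalized counts of Mapt, and the HN replicates held 274, 203 and 181. The lowest HN library thus lay well above the highest R1 library, on 52 to 64 reads per library in R1 and 167 to 287 in HN. R1 averaged 58.5 ± 13.0 against 219 ± 48.4 for HN (SD, n = 3). On the log2 scale the difference was 1.89 ± 0.25 (SE), with a BH-adjusted p of 0.00726 in limma and of 8.12e-11 once the date was a block. Within the dates, the log2 difference was 2.29 and 2.08 on the first and second and 1.30 on the third. The call was lost without R1 replicate 1 (BH-adjusted p = 0.0783 by limma) and without HN replicate 1 (BH-adjusted p = 0.0702). Mapt is also a gene that the study itself listed as up-regulated from these libraries, so its call is no independent evidence. None of the 50-base stretches of its transcripts occurs in transcripts of another gene, so its reads have no evident second source. The values sum all isoforms, so the fetal and adult forms of tau were not resolved.

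Map4, the tau relative of most dividing cells, had 416, 378 and 341 normalized counts in R1, and HN gave 473, 550 and 444. The lines did not overlap, although R1 replicate 1 and HN replicate 3 lay close together. The log2 difference was 0.37 ± 0.18 (SE), with a BH-adjusted p of 0.941 in limma and of 0.0169 once the date was a block, and it was positive on all 3 dates. DESeq2 with the block did not pass it (BH-adjusted p = 0.0918). Map2, the dendritic member of this family, was read sparsely, with 24.5, 8.88 and 25.6 normalized counts in R1 and 37.7, 8.51 and 43.3 in HN. In both lines the second-date library was the lowest, and on that date the lines were nearly equal. The log2 difference of Map2 was 0.43, with a 95% interval from -0.88 to 1.73 without the block and from -0.18 to 1.03 with it, and its sign turned to -0.038 without R1 replicate 2. The log2 difference of 1.89 seen for Mapt lies outside both intervals. Without the block, however, the interval of Mapt itself (1.35 to 2.43) overlaps that of Map2. DESeq2 without the block gave Map2 a log2 difference of 0.61 ± 0.67 (SE). A difference in Map2 as large as that of Mapt was thus not excluded by every test.

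The MAP1 genes moved in opposite directions. Map1b, which encodes a microtubule-binding protein of growing axons (minus strand of chromosome 13, 99421446 to 99516540), had 182, 166 and 140 normalized counts in R1 and 279, 203 and 212 in HN. Each HN library was above each R1 library. R1 averaged 163 ± 21.1 against 231 ± 41.1 for HN (SD, n = 3). The log2 difference was 0.50 ± 0.21 (SE), with a BH-adjusted p of 0.769 in limma and of 0.00585 once the date was a block. DESeq2 with the block did not pass it (BH-adjusted p = 0.0947). Map1a, whose product associates with microtubules of mature neurons (plus strand of chromosome 2, 121289600 to 121310832), had 46.8, 44.4 and 47.2 normalized counts in R1. In HN it had 20.7, 31.2 and 21.7, so the R1 libraries were nearly level and all HN libraries lay below them. R1 averaged 46.1 ± 1.52 against 24.5 ± 5.80 for HN (SD, n = 3). The log2 difference was -0.91 ± 0.29 (SE), with a BH-adjusted p of 0.524 in limma and of 0.0109 once the date was a block. Map1a rested on 17 to 60 reads per library, and DESeq2 with the block did not pass it (BH-adjusted p = 0.207). At its 3′ end it shares 272 bp, or 2.24% of its exon length, with Ppip5k1 on the opposite strand, and the library kit does not mark strand.

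Stmn2 (SCG10), a stathmin of growth cones on chromosome 3 from 8509360 to 8561606, was read most of the 10 genes. R1 held 919, 663 and 477 normalized counts of Stmn2, against 399, 379 and 386 in HN. The HN libraries were almost level, while the R1 libraries spread widely and the third-date R1 library came closest to HN. R1 averaged 686 ± 222 against 388 ± 10.5 for HN (SD, n = 3). The log2 difference was -0.77 ± 0.23 (SE), with a BH-adjusted p of 0.463 in limma and of 1.17e-05 once the date was a block. DESeq2 passed it without the block (BH-adjusted p = 0.0456, in a fit that passed 0.308% of all tested genes as lower) and with it (BH-adjusted p = 1.82e-05).

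Stmn3 (SCLIP), a neuronal stathmin on the minus strand of chromosome 2 from 181306459 to 181314500, was the gene of the group with the largest decrease. It had 87.3, 79.9 and 37.7 normalized counts in R1 and 34.1, 24.1 and 17.3 in HN. The third-date R1 library stood only a little above the first-date HN library, and within each date HN was lower by more than 1 on the log2 scale, with differences of -1.33, -1.69 and -1.08. R1 averaged 68.3 ± 26.7 against 25.2 ± 8.42 for HN (SD, n = 3). Stmn3 thus had a log2 difference of -1.37 ± 0.37 (SE), with a BH-adjusted p of 0.354 in limma and of 4.07e-05 once the date was a block. Stmn3 was therefore called with the block only. Without R1 replicate 3 it was also called without the block (log2 difference -1.74, BH-adjusted p = 0.048). Its start region printed above was CpG-poor, as were both of Dcx and 1 of Map4, which was higher in HN.

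Stmn1 (oncoprotein 18), the stathmin of proliferating cells, had 139, 132 and 67.4 normalized counts in R1 and 87.6, 126 and 81.2 in HN. The lines overlapped, and the same-date differences of -0.66, -0.07 and 0.27 had both signs. The log2 difference was -0.16 with a 95% interval from -0.82 to 0.50, and from -0.48 to 0.17 with the date block. The sign turned to 0.029 without R1 replicate 1. The log2 difference of -1.37 seen for Stmn3 lies outside these intervals, although without the block the interval of Stmn3 itself (-2.18 to -0.55) overlaps that of Stmn1. Of the 50-base stretches of Stmn1, 18.9% also occur in transcripts of 2 other genes, chiefly the processed pseudogene Gm11223, so its reads are less certain than those of the others.

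Tubb3 encodes β-III tubulin, the tubulin that marks neurons in stainings. The gene spans positions 123411424 to 123422015 of chromosome 8, plus strand. R1 held 201, 269 and 133 normalized counts of Tubb3, against 82.7, 149 and 120 in HN. The third-date R1 library fell below the second-date HN library, so the lines overlapped, while HN was lower on each date with log2 differences of -1.27, -0.85 and -0.15. R1 averaged 201 ± 67.9 against 117 ± 33.2 for HN (SD, n = 3). For Tubb3 the log2 difference was -0.76 ± 0.29 (SE), with a BH-adjusted p of 0.715 in limma and of 7.45e-04 once the date was a block. Without the third date the difference was -1.06, and Tubb3 was then called with the block, as were Stmn2 and Stmn3. Dcx, the gene of doublecortin, had 1, 2 and 0 reads in R1 and 1, 0 and 3 in HN. It was at or under the limit of 3 reads in every library and was not tested, so that a difference was not detectable at this depth.

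**Figure D2:**
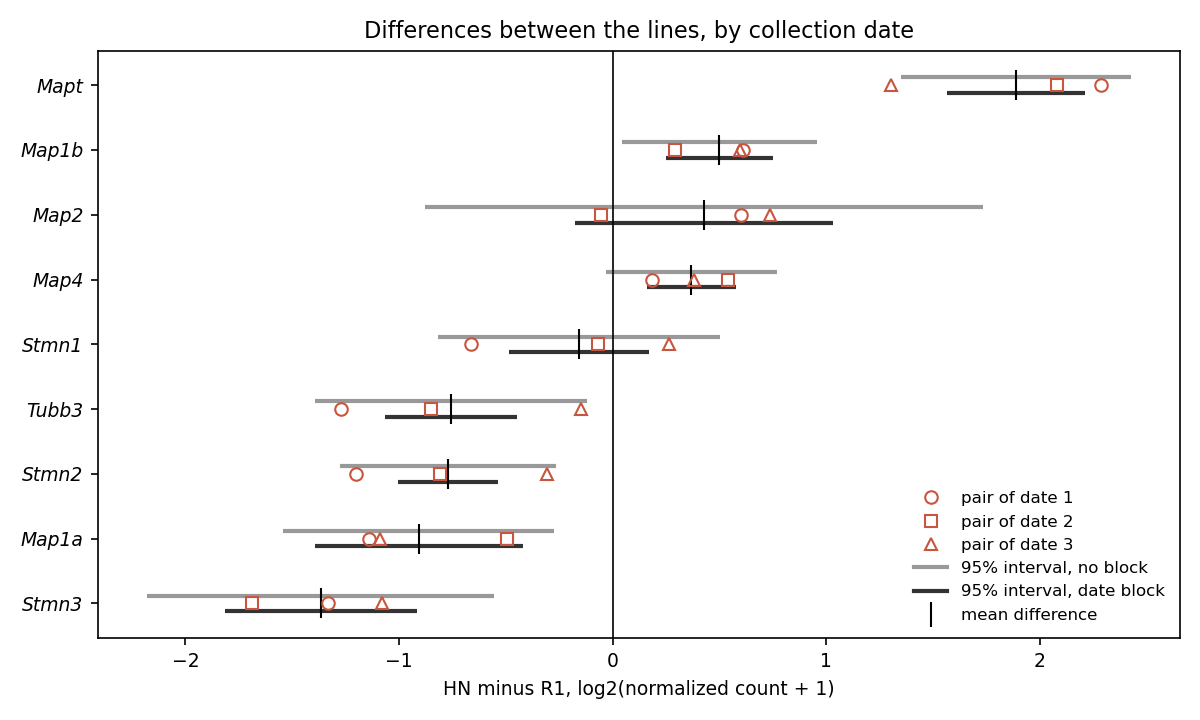
Log2 differences of HN minus R1 for the 9 tested genes, with open symbols for the same-date pairs, a tick at the mean and bars for the 95% intervals of limma without the block (grey) and with the date block (black). Mapt, Map1b and Map4 lie to the right on all 3 dates, Stmn3, Map1a, Stmn2 and Tubb3 to the left, and Map2 and Stmn1 have pairs on both sides of 0.

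For Stmn2, Stmn3 and Tubb3 the third date stood further from the first and second in R1 than in HN, while for Map2 (0.75 in R1 and 1.21 in HN) and Map1a (0.05 and -0.22) it stood further in HN. In R1, Stmn2, Stmn3 and Tubb3 differed from the mean of the other R1 libraries by -0.71, -1.13 and -0.80 on the log2 scale, and in HN by -0.01, -0.69 and 0.11. Stmn1 was also lowest on the third date in R1, with 67.4 normalized counts. Mapt moved the other way in R1 (0.50) and downward in HN (-0.38). The line differences of Mapt, Stmn2, Stmn3 and Tubb3 were smallest on the third date, and that of Stmn1 had the opposite sign there.

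For a comparison of levels between genes, the normalized counts were divided by the exon length of each gene. Per kb of exon, Stmn2 (122 ± 39.6) and Tubb3 (108 ± 36.4) were highest in R1, and they did not differ beyond their spread. Stmn3 (60.1 ± 23.5) and Stmn1 (58.8 ± 20.7) followed with nearly equal levels per kb, and Tubb3 and Stmn3 also lay within their spread. Map4 (25.0 ± 2.48), Map1b (10.3 ± 1.33), Mapt (7.77 ± 1.73), Map1a (3.79 ± 0.13), Map2 (1.20 ± 0.57) and Dcx (0.07 ± 0.06) came after them, and of these only Map1b and Mapt were neighbours within their spread. In HN, Stmn2 (69.2 ± 1.87), Tubb3 (62.8 ± 17.8) and Stmn1 (51.2 ± 12.7) came first, each within the spread of its neighbour. Map4 (32.3 ± 3.62), Mapt (29.1 ± 6.43), Stmn3 (22.2 ± 7.41) and Map1b (14.6 ± 2.59) followed, also within the spread of their neighbours, and then Map1a (2.01 ± 0.48), Map2 (1.81 ± 1.14) and Dcx (0.12 ± 0.13). By level per kb, Mapt thus moved from place 7 in R1 to place 5 in HN, and Stmn3 from place 3 to place 6. With the longest transcript as length, Mapt held the same places, and Stmn3 stood at place 5 in R1 and place 6 in HN.

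Shares within a family give a view that does not depend on the scaling of a library. Of the summed level per kb of Mapt, Map2 and Map4, Mapt took 20.2%, 19.8% and 28.6% in R1 and 52.0%, 42.3% and 42.9% in HN. The mean share of tau was 22.9% ± 4.99 in R1 and 45.7% ± 5.44 in HN (SD, n = 3). Map1a took 25.1%, 25.9% and 30.5% of the MAP1 pair in R1 and 8.82%, 16.6% and 11.7% in HN. Stmn3 took 24.5%, 27.3% and 21.6% of the stathmin trio in R1 and 20.4%, 13.7% and 12.1% in HN, whereas the share of Stmn2 overlapped (51.3% ± 4.87 in R1 and 48.9% ± 5.37 in HN, SD, n = 3, exact permutation p = 0.6). Tubb3 took 3.06%, 3.35% and 2.36% of 8 β-tubulin genes in R1 and 1.21%, 1.86% and 1.89% in HN. For Mapt, Map1a, Stmn3 and Tubb3 the lines did not overlap in these shares, and the exact two-sided permutation p was 0.1, the smallest possible. The shares were chosen after the levels were seen.

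**Figure D3:**
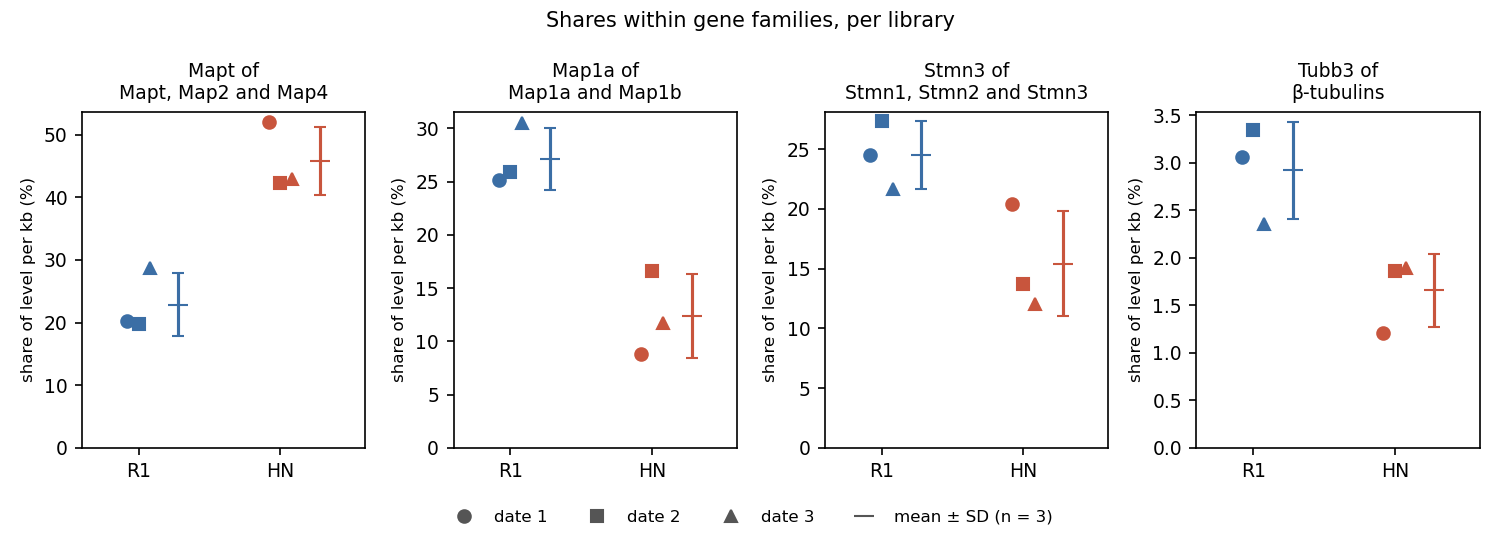
Share (%) of the level per kb of exon that Mapt, Map1a, Stmn3 and Tubb3 take within their families in each library, with symbols for the collection dates and the mean ± SD (n = 3) beside them. In each panel all R1 libraries lie on the same side of all HN libraries, below HN for Mapt and above HN for the other panels. The share of Stmn2, which overlapped between the lines, is not plotted.

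In 4 lists of other microtubule genes, no gene was called by limma with or without the block. Of 19 tubulin genes 14 were tested, and 0 were called in limma with or without the block. Tubb6 and Tuba1a were lower with a BH-adjusted p under 0.05 in the blocked fit (9.48% of all tested genes passed it in either direction), and 1 of the 14 had an unadjusted p under 0.05 without the block. Tubb6 had 249, 238 and 262 normalized counts in R1 and 192, 178 and 154 in HN, a log2 difference of -0.52 (BH-adjusted p = 0.00381 by limma with the block). Tuba1a, the main α-tubulin of young neurons, had a log2 difference of -0.34 (BH-adjusted p = 0.022 by limma with the block) with overlapping lines. The most read tubulins, Tubb5 and Tubb4b, had log2 differences of 0.15 and 0.15 (BH-adjusted p = 0.331 and 0.334 by limma with the block). The median over the 14 genes was 0.05.

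Among 25 other microtubule-binding proteins, 23 were measured, 22 were tested and 0 were called by limma with or without the block, while 2 had an unadjusted p under 0.05 without it. At any fold, Clasp1 and Map7 were higher and Dclk2 lower in the blocked fit. Clasp1, which anchors growing microtubule ends, had 186, 269 and 265 normalized counts in R1 and 341, 365 and 346 in HN without overlap (log2 difference 0.56, BH-adjusted p = 8.81e-04 by limma with the block). Dclk2, a kinase related to doublecortin, had 106, 88.0 and 84.9 in R1 and 57.2, 58.1 and 68.2 in HN (log2 difference -0.60, BH-adjusted p = 0.0199 in the same test). Map7 had overlapping lines and a log2 difference of 0.43 (BH-adjusted p = 0.048). The most read genes, Tpx2 and Ckap5, which serve the mitotic spindle, had log2 differences of 0.04 and 0.14. Of 30 genes for the folding, severing and modification of tubulin, 27 were tested and 0 were called, with 1 at an unadjusted p under 0.05. Their log2 differences ran from -1.24 to 0.41, and none was lower without overlap or passed as lower with the block. Fignl1 was higher at any fold in the blocked fit (log2 difference 0.41, BH-adjusted p = 0.00437), and Tbcd, the other of the most read, had 0.18. Of 22 tau kinases and phosphatases, 21 were tested and 0 were called, with 0 at an unadjusted p under 0.05. Ppp2r2a, a regulatory subunit of the phosphatase PP2A, was higher at any fold in the blocked fit (log2 difference 0.39, BH-adjusted p = 0.0288), and Ppp2ca, the catalytic subunit of the same phosphatase and among the most read, had a log2 difference of -0.07. DESeq2 and edgeR, with and without the block, called 0 genes of these 4 lists.

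**Figure D4:**
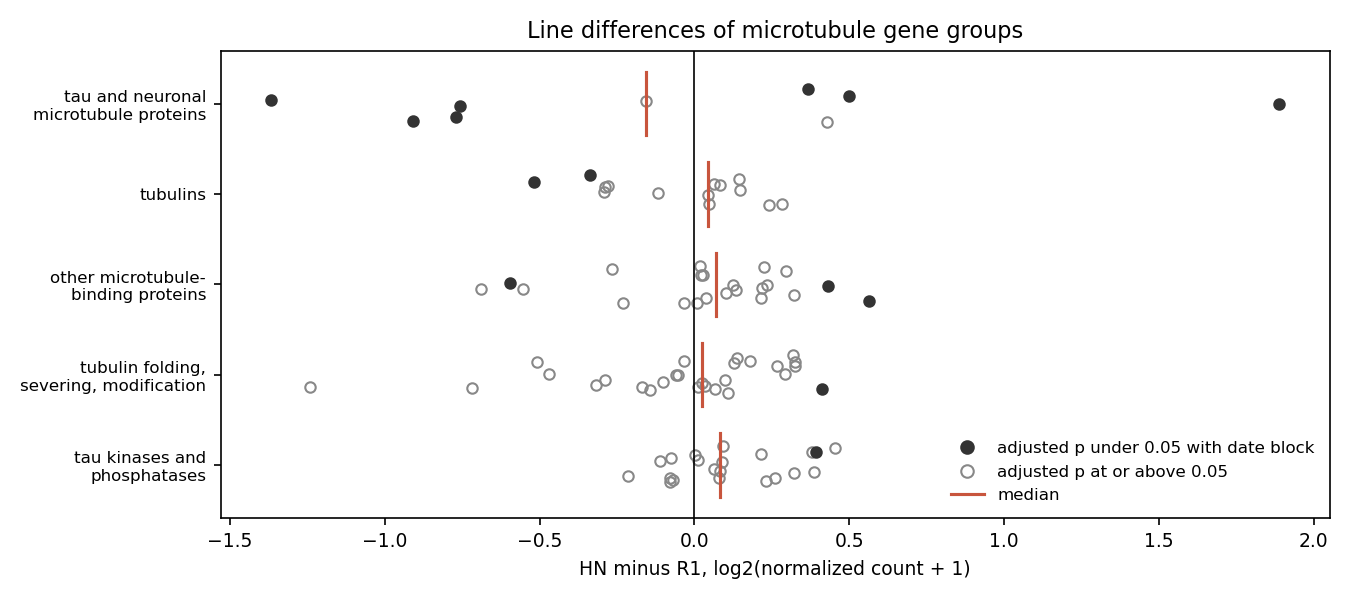
Log2 differences of HN minus R1 for each tested gene of the group and of 4 lists of other microtubule genes, filled where the BH-adjusted p was under 0.05 in limma with the date block, with a red line at the median. The group has 7 of 9 filled points on both sides of 0, against 2 of 14 tubulins, 3 of 22 other binding proteins, 1 of 27 folding, severing and modifying genes and 1 of 21 tau kinases and phosphatases. The mESC markers, which are not plotted, also had 7 of 9 genes passing in that fit. Of all tested genes 9.48% passed it, and in limma without the block 1 of 9 genes of the group passed. The group and the lists were chosen with earlier results of these data known.

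Around Mapt, 10 measured genes lie within 500 kb, of which 9 were tested. Their log2 differences ran from -0.44 (Crhr1) to 0.59 (Wnt9b), and 0 were called with or without the block. Kansl1, which ends 1139 bp from Mapt on the other strand, had 303 ± 57.4 normalized counts in R1 and 388 ± 68.1 in HN (SD, n = 3), a log2 difference of 0.36 with a BH-adjusted p of 1 in limma and of 0.0226 once the date was a block. Nsf had a log2 difference of 0.41 (BH-adjusted p = 0.0146 with the block). Arf2, Cdc27, Wnt3, Myl4 and Itgb3 had log2 differences of 0.09, 0.12, 0.07, 0.14 and 0.24.

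The genes whose pattern over the 6 libraries was most like that of Mapt were Dnajc3, Tex264, Ubd, Naaladl1 and Rpe, with Pearson correlations of log2(normalized count + 1) from 0.985 (Rpe) to 0.992 (Dnajc3). The 6 libraries share 3 dates and 2 lines, so these values describe the libraries and mainly follow the difference between the lines. All 5 lay higher in HN without overlap, as did 5.23% of all tested genes, and their choice by likeness to Mapt favours this. Ubd had 1 read in each R1 library. Naaladl1 had 4 to 14 reads per library and did not pass with the block (BH-adjusted p = 0.278 by limma). Dnajc3 had 111 normalized counts on average in R1 and 200.3 in HN (log2 difference 0.83, BH-adjusted p = 0.24 in limma, and 3.57e-05 once the date was a block).

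Both lines carried the markers of mESCs. The summed normalized counts of 9 of 9 such genes, among them Pou5f1, Nanog and Sox2, ran from 12873 to 18088 in R1 and from 15403 to 20813 in HN. With the block, 6 of these 9 passed as higher and 1 as lower at any fold, and 3 were higher and 1 lower without overlap. By the same count, the mESC markers thus passed as often as the microtubule group. The lower one, Zfp42, had a log2 difference of -0.79 (BH-adjusted p = 6.37e-08 by limma with the block), and the median of the 9 was 0.28. The sums of 12 neuron markers were 194 to 325 in R1 and 220 to 321 in HN, and those of 6 neural progenitor markers 56.2 to 189 and 70.2 to 177. Snap25 and Syp, which define synapses, had at most 9.43 and 7.45 normalized counts in any library, and Fabp7 at most 2.70. In these bulk samples, fewer cells of a type and less RNA per cell cannot be told apart. Of the neuron markers 1 of 11 tested was called, with the block only: Nefl, the neurofilament light chain, had 35.1, 42.9 and 29.7 in R1 and 77.9, 125 and 57.4 in HN (log2 difference 1.19, BH-adjusted p = 4.36e-05 by limma with the block). The median over the 11 neuron markers was -0.13, with differences from -0.62 (Gap43) upward, and the other neuron markers did not pass. Of 8 glial markers, Olig1 and Olig2 were called higher with the block, Olig1 without it as well, and the sum was 95.4 to 194 in R1 and 223 to 290 in HN. The other glial markers tested did not pass, and their log2 differences were below 0, down to -0.95 (among them Aldh1l1 -0.28, Sox10 -0.63 and Mbp -0.20). Of these, 1 was lower in HN without overlap. The median over the 6 tested was -0.24. Fibroblast markers summed to 38.5 to 106 in R1 and 12.8 to 69.3 in HN, primitive endoderm markers to 41.4 to 175 and 41.8 to 151, and mesoderm markers to 82.0 to 161 and 138 to 249. Thy1, listed with the fibroblast markers and also known from neurons, was called lower with the block (log2 difference -1.54), and T, of the mesoderm list, was called higher (log2 difference 1.21). The progenitor, neuron, fibroblast and primitive endoderm sums were highest in the third-date library of each line. In HN the neuron sum was nearly level between the second date (320.4) and the third (320.6). The line differences of Mapt, Stmn2, Stmn3 and Tubb3 were smallest on the third date. The part of these marker genes in the line differences was not tested.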

How the data were processed

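RNA-seq libraries of R1 and HN mESCs (3 each) were analysed. The authors mapped paired-end reads (STAR, build mm10/GRCm38), took out PCR duplicates (Picard), counted exonic reads per gene (HTSeq) and scaled every library by a DESeq2 size factor. The deposited values are this normalized signal per gene, described by the authors as normalized counts. The versions and the gene annotation are not given in the sources used here. Dividing a library by its smallest value above 0 gave whole reads (within 0.01) for 100% of values, and these served for depth and count tests. Unused columns of per-sample values numbered 0.

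Values were tested as log2(value + 1) with limma 3.58.1 in R 4.3.3, with a trend of variance on expression, over 14276 genes with a mean of at least 5, as for the whole series. The limma test was kept as the main one because the deposited values are normalized. Alternatives were the replicate block, count tests of those reads by edgeR 4.0.16 and DESeq2 1.42.0, each also blocked, other pseudocounts, filters and scalings, no variance trend and leaving out each library. Leaving out the third date was added after seeing the data. The scripts were tested on simulated counts. The members, the other lists and the rule for named genes were chosen with earlier results of these data known. Genes named are all members, Htt, in each list those called with or without the block and the 2 most read, the 5 most correlated with Mapt, and tested genes within 500 kb of Mapt. Of the genes named by this rule, 1 is not reported here. Others, including those that passed at any fold with the block, were named after their values were seen.

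The replicate numbers pair the libraries because the labels give same-numbered libraries the same collection date. Across genes, deviations from the line means were correlated at 0.25, 0.69 and 0.77 for the same-date pairs. Deviations within a line cancel out for each gene, so positive same-date values pull the other pairs down. The other pairs are thus no independent reference. Pairs from different dates ran from -0.71 to 0.34. The largest of these joined the first-date R1 library to the second-date HN library and exceeded the first-date value of 0.25. The first-date HN library was still closest to the first-date R1 library. For the first date the pairing thus rests on the labels more than on these correlations. Nothing in the sources states separate thawings or clones, so p-values concern these libraries only. In limma the variance of each gene is also drawn towards that of other genes. The small p-values with the block rest largely on this shared variance and not on the spread of the gene itself. The libraries carried no molecular identifiers, so a read is not certain to be a separate molecule. Positions and exon lengths come from GENCODE M21 for GRCm38, and shared 50-base stretches were counted over its transcripts.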

Additional observations from a re-analysis of the deposited data

How the results depend on the processing

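The log2 difference of Mapt stayed positive in all 20 alternatives, from 1.72 to 2.18, and from 1.72 to 2.06 with each library left out. Its BH-adjusted p by the test of each alternative ran from 2.34e-33 to 0.185, and Mapt passed in 17. The smallest came from limma with the block and without the third date. The variance there rests almost wholly on other genes, so its size is no measure of certainty about Mapt. Without the variance trend the difference of 1.89 was no longer called (BH-adjusted p = 0.185), nor was it without R1 replicate 1 or without HN replicate 1. The number of the 9 genes called higher was 1 in the main test, 0 without the variance trend, and 0 to 1 with each library left out. The number called lower was 0, and 0 to 1 with each library left out. It was 1 with the replicate block in limma, edgeR and DESeq2, namely Stmn3, and 3 with the block when the third date was left out. The sign of Map2 turned without R1 replicate 2 (log2 difference -0.038, with a range up to 1.14 over the libraries left out) and that of Stmn1 without R1 replicate 1 (0.029, with a range down to -0.49). Map1a, Map1b, Map4, Stmn2, Stmn3 and Tubb3 kept their sign in every alternative run. With no library left out, the replicate block changed the call of Stmn3 and of no other of the 9 genes. Without the third date, the block in limma changed the calls of Stmn2 and Tubb3 as well.

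Over all tested genes, 17 were called higher and 18 lower in the main test. The numbers were 130 and 148 with the replicate block, 132 and 152 with edgeR and the block, 47 and 33 with DESeq2, 72 and 55 with DESeq2 and the block, and 189 and 197 with the block when the third date was left out. Median centring gave 27 higher, and without the variance trend 0 and 0 were called (128 and 157 at an unadjusted p under 0.05 with an absolute log2 difference above 1). With each library left out they ran from 3 to 30 higher and from 4 to 26 lower. They were 4 and 4 without R1 replicate 1, 3 and 10 without HN replicate 1, and 30 higher without R1 replicate 3. The causes were not tested. Median centring and quantile normalization shifted the median of all genes by less than 0.1 on the log2 scale. Genes with few reads, such as Map2 and Dcx, limit what the depth can show.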
